A study of Mus musculus with 4 samples.

Results

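A set of 39 genes of homologous recombination and of the Fanconi anaemia pathway, chosen by their known function and matched by gene symbol, was followed in RNA-seq libraries of mouse embryonic stem (ES) cells. All 39 were found among the 37224 Ensembl genes counted, and all 39 passed the filter on low counts. The libraries were 2 of normal, wild-type ES cells and 2 of ES cells deficient in Smg6, the endonuclease of nonsense-mediated mRNA decay (NMD). NMD removes mRNAs that carry a premature stop codon. The labels name the genotype and no other treatment. They do not say how Smg6 was made deficient, or whether replicate libraries derive from different cultures, clones or lines. The p-values therefore rest on the variation among these 4 libraries, which may be technical. The comparison asks which repair genes differ in level between ES cells labelled wild type and ES cells labelled Smg6 deficient.

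Homologous recombination repairs a broken chromosome by copying an intact sister. The break is sensed and trimmed to single-stranded DNA, BRCA2 and its partners prepare that DNA for pairing, the strand invades the sister, and nucleases and helicases resolve the joined molecules. The Fanconi pathway unlocks DNA strands joined by a crosslink: a core complex attaches ubiquitin to the FANCI-FANCD2 pair, nucleases cut around the lesion, and homologous recombination completes the repair. ES cells divide rapidly and spend much of their cycle in S phase, where these pathways act.

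Expression levels are given as CPM, that is, counts relative to library size after scaling by the trimmed mean of M values (TMM). Deposited RPKM values, which are also scaled by gene length, are used to compare levels between genes and in alternative tests of the change with limma-trend. Changes are Smg6-deficient over wild type on the log2 scale, with a standard error (SE) and an adjusted p from edgeR's quasi-likelihood test over 20895 genes, and a gene "rose" or "fell" where the adjusted p was under 0.05. Count totals lay between 130888768 and 155391181 per library. Together the 39 genes made up 0.234% and 0.261% of all wild-type reads counted; in Smg6-deficient cells they made up 0.301% and 0.294%. The scarcest of them, Fancf, had 303 counts in the library where it was lowest. Smg6 itself was at 95.7 and 105.1 CPM in wild-type and 87.6 and 86.2 CPM in Smg6-deficient libraries (edgeR log2 fold change -0.21 ± 0.083 SE, adjusted p = 0.089). A count over the whole gene does not check for the loss of some exons, so it does not settle the labels. Smg6 passed under 4 alternatives, among them leaving out wild-type replicate 1 (edgeR log2 fold change -0.27, adjusted p = 0.013).

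Because Smg6 acts on transcripts with premature stops, the stop codons of annotated NMD transcripts are shown first. GENCODE M21, on GRCm38 (mm10), annotates at least 1 NMD transcript for 19 of the 39 genes, and 9 of these 19 rose (47.4%). Of the 20 members without one, 40% rose, and of tested coding genes with one, 33.3% rose. The 10 members with an NMD transcript that did not pass also hold annotated premature stops, which are not printed. Where a gene has several NMD transcripts, 1 is shown: those with an annotated start come first, and then the one with the most codons. For the 9 genes, the 30 bases that end in the premature stop codon are printed 5′ to 3′ in the sense of the gene, with the stop codon in capitals. All printed bases belong to the annotated reading frame.
Mus81: gtggatcgatacagcacccctgccagaTAA
Fanci: gaactgttcaaaagtcacggaaactttTGA
Trp53bp1: agtactcctattgtcagtgctgggaggTAA
Fancm: cccaactattatttcaacttccaggaaTAA
Rad52: agttctacgtgggagtctgtgcatttgTAA
Fance: cgagttactgtgttccctcataaaggaTGA
Slx4: tccctggccctaagcgcaggtttggtgTGA
Atrip: tctctgtgctgctggaccatgacagccTAG
Rad51d: caaccacttgactcgagattgggatggTAG

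The premature stop shown for Fanci (chr7:79424276-79424278, plus strand) lies in exon 13 of 35, 2624 nt before the last exon junction, and leaves 394 codons where the longest coding transcript has 1330. That of Fancm (chr12:65101564-65101566, plus strand) lies in exon 12 of 23 and leaves 664 of 2021 codons. In Mus81 the stop shown (chr19:5483218-5483220, minus strand) lies in exon 15 of 16, 110 nt before the last junction, and leaves 502 codons against 551. Mus81 has 3 annotated NMD transcripts, and another of them stops in exon 3 of 7 after 97 codons. Rad52 (chr6:119914221-119914223, plus strand) keeps 80 of 420 codons, Fance (chr17:28318369-28318371, plus strand) 406 of 526, Atrip (chr9:109061556-109061558, minus strand) 585 of 785 and Rad51d (chr11:82879318-82879320, minus strand) 233 of 329. The other 2 NMD transcripts of Rad51d leave 109 and 53 codons. None of the 2 NMD transcripts of Slx4 (stop shown, chr16:3987166-3987168, minus strand) and the 4 of Trp53bp1 (stop shown, chr2:121228146-121228148, minus strand) has an annotated start. Fanci has 3 NMD transcripts with different stops, and the 4 of Fance share the stop shown. The deposited values are gene totals, so the share of reads from these transcripts was not measured.

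Of the 39 genes, 17 rose and 2 fell. That is 43.6% rising, beside 20.5% of all tested genes, and 5.13% falling, beside 19.2% of all tested genes. In either direction 48.7% of the 39 passed, beside 39.7% of all tested genes. All 39 are coding genes. Of the 16455 tested coding genes, 23.9% rose, 20.3% fell and 44.2% passed in either direction. The median log2 fold change was 0.23, beside 0.0080 over all tested genes, and 31 of 39 values were positive. The genes that rose did so by 1.22-fold (Mre11a) to 2.15-fold (Mus81). Groups did not overlap for 34 of the 39 genes, 29 of them higher and 5 lower in Smg6-deficient cells. Over all tested genes they did not overlap for 73.2%, with 37.3% higher and 35.9% lower. Mus81 was the only member that passed with at least a 2-fold change, against 13.5% of all tested genes. Of the 10 Fanc genes 6 rose, and of the other 29 members 11 rose (37.9%); the difference was not tested. Without Smg6-deficient replicate 2, 11 members rose and 2 fell, beside 2599 and 2206 of all 20895 tested genes, and the calls lost were those of Rad51d, Mre11a, Fancf, Fancg, Wrn and Eme1. With a correction for gene length and the replicate number as a block, 17 members rose and 5 fell, beside 4589 and 5034 of 20499 genes. Xrcc2, Rbbp8 and Brca2 were added to those that fell. Among those that rose, Mdc1 was added and Mre11a lost its call.

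**Figure D1:**
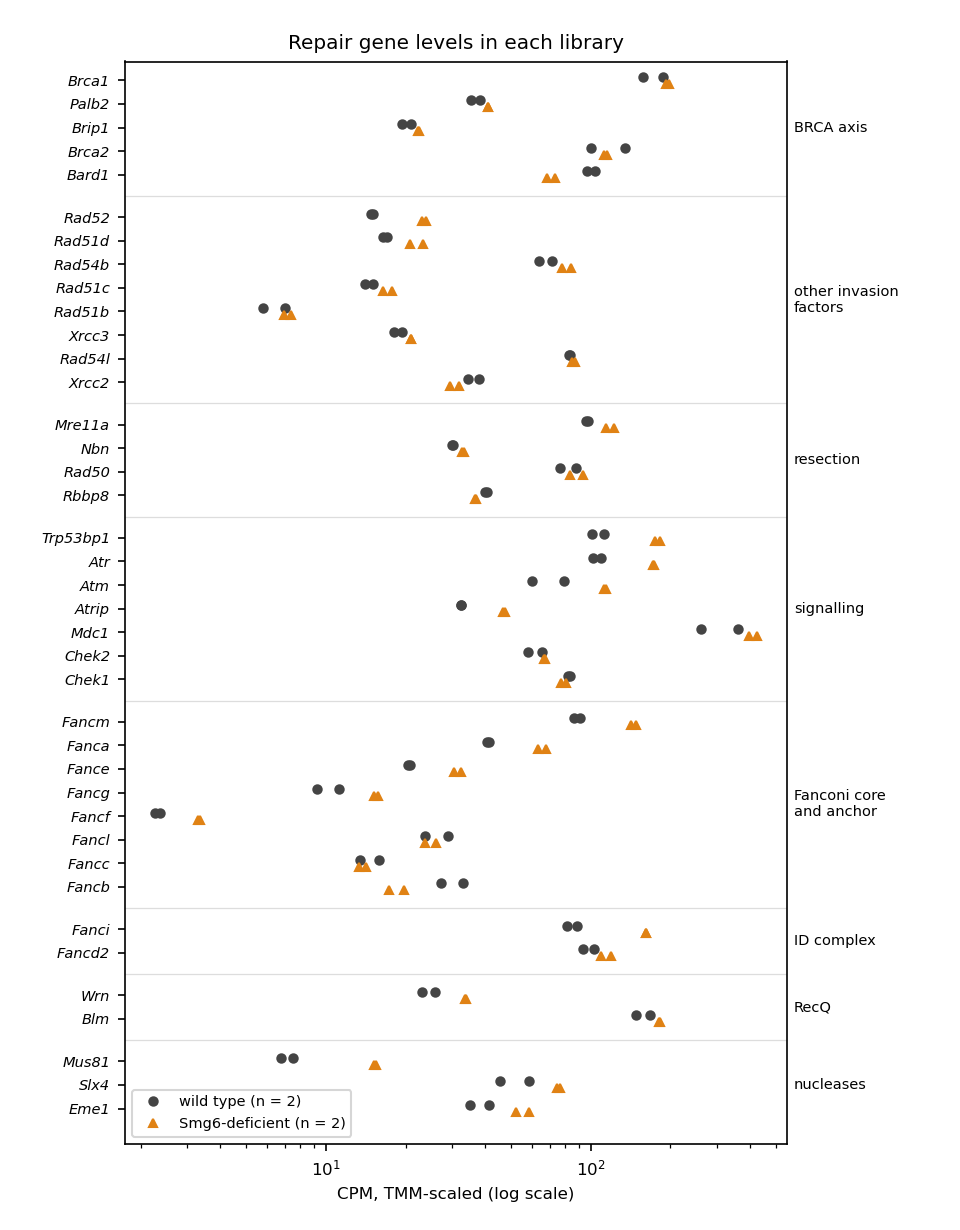
Level of each of the 39 repair genes in each library, as CPM on a log axis, with genes grouped by role; circles are the 2 wild-type and triangles the 2 Smg6-deficient libraries. For Mus81, Fanci, Atr and Trp53bp1 the triangles lie to the right of both circles, and for Bard1 and Fancb to the left.

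The cell populations also differed in their markers, in libraries where 20.5% of all tested genes rose and 19.2% fell. All 12 ES cell markers were detected in every library. Of these markers 7 fell in Smg6-deficient cells (among them Nanog at -2.04 and Dppa5a at -1.14) and 2 rose (Utf1 at 0.98 and Lin28a at 0.72, named after their values were seen). Their summed levels were 6241 and 5339 CPM in wild-type and 4180 and 4112 CPM in Smg6-deficient libraries. Endoderm markers rose for 14 of 16 and fell for 2 (Hnf4a and Afp, named after their values were seen), with Cubn at a log2 fold change of 4.95 and Lama1 at 3.62. Their summed level was 735.3 and 647.5 CPM in wild-type and 2605 and 3875 CPM in Smg6-deficient libraries. Of 12 fibroblast markers, 3 rose, with Fbn1 at 0.73 and Pdgfrb at 0.56, which lost its call under 10 of 18 alternatives, and their summed levels were 1825 and 1346 CPM against 2042 and 1915 CPM. Every marker of the 3 lists had counts in at least 1 library of each group, so detection alone does not tell these cell types apart. More cells with a high level and more RNA per cell cannot be told apart in bulk RNA, and the part of these markers in the repair gene values was not tested.

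Per gene length, the wild-type levels spanned a range from 1.12 and 1.24 RPKM for Fancf to 31.4 and 40.6 RPKM for Mdc1 in the 2 wild-type libraries. Mean levels above 20 RPKM were those of Mdc1, Blm (27.4 RPKM) and Chek2 (23.6 RPKM), and the values of Blm and Chek2 lay close without overlapping, at 26.6 and 28.2 against 25.8 and 21.5 RPKM. Those under 2 RPKM were Fancf, Fancc (1.61 RPKM) and Mus81 (1.72 RPKM). Neighbours in the order often did not differ beyond their spread: Fancg (2.63 and 2.05 RPKM) overlapped Brip1 (2.50 and 2.17 RPKM), and Rad52 (3.91 and 3.74 RPKM) overlapped Rad51d (3.94 and 3.82 RPKM). The median over the members was 7.46 RPKM across all 4 libraries, against 3.91 RPKM for tested coding genes.

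Of the 3 genes for the nucleases that cut branched DNA and their scaffold, 3 rose. For this and the role groups that follow, the share over all tested genes was 20.5% rising and 19.2% falling. Mus81 is the catalytic subunit of an enzyme that cuts stalled forks and joined molecules, and it stood at 7.51 and 6.77 CPM in wild-type and at 15.5 and 15.2 CPM in Smg6-deficient libraries (edgeR log2 fold change 1.10 ± 0.11 SE, adjusted p = 0.00079). Every Smg6-deficient value was above every wild-type value, and this was the highest rise among the 39. Eme1, its noncatalytic partner, was at 41.3 and 34.9 CPM against 52.1 and 58.3 CPM (edgeR log2 fold change 0.53 ± 0.11 SE, adjusted p = 0.010). Leaving out Smg6-deficient replicate 2 ended that call (edgeR log2 fold change 0.45, adjusted p = 0.059), as did the 3 tests on RPKM (limma-trend adjusted p = 0.056 to 0.12). Slx4, the scaffold that holds MUS81-EME1 and other nucleases, was at 45.5 and 58.3 CPM against 74.6 and 76.9 CPM (edgeR log2 fold change 0.54 ± 0.12 SE, adjusted p = 0.014). Slx4 varied more within the wild type than within Smg6-deficient cells, but the groups did not overlap. The call of Slx4 was lost in the unfiltered test on log2(RPKM + 0.1) (limma-trend adjusted p = 0.085).

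Among Fanconi genes, 5 of the 8 coding for the core complex and its anchor rose and 1 fell. Fancm, the DNA translocase that anchors the core complex at the lesion, was at 86.6 and 91.2 CPM in wild-type and at 142.1 and 147.7 CPM in Smg6-deficient libraries (edgeR log2 fold change 0.70 ± 0.079 SE, adjusted p = 0.0011). Fanca, a large scaffold subunit, was at 40.7 and 41.3 CPM against 67.8 and 63.3 CPM (edgeR log2 fold change 0.68 ± 0.082 SE, adjusted p = 0.0014). Fance, which bridges the core complex to FANCD2, was at 20.5 and 20.9 CPM against 32.3 and 30.5 CPM (edgeR log2 fold change 0.60 ± 0.089 SE, adjusted p = 0.0029). In these 3 genes the replicates of each group lay close together and the groups lay far apart.

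The other core genes that rose were scarcer. Fancg, a partner of FANCA, was at 11.3 and 9.30 CPM against 15.3 and 15.8 CPM (edgeR log2 fold change 0.59 ± 0.13 SE, adjusted p = 0.011). Fancf, an adaptor subunit with 1 annotated transcript, was at 2.36 and 2.26 CPM against 3.29 and 3.35 CPM (edgeR log2 fold change 0.52 ± 0.15 SE, adjusted p = 0.036). Leaving out Smg6-deficient replicate 2 cost Fancg its call (edgeR adjusted p = 0.057). Leaving out replicate 1 or 2 of that group cost Fancf its call (edgeR adjusted p = 0.21 and 0.23), as did scaling by library size alone (0.052). Both were lost in the tests on RPKM, in which the log2 fold change of Fancf dropped to 0.28 with a pseudocount of 1.

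Fancb, a subunit of the catalytic module and the single X-linked member, fell. It stood at 27.2 and 32.9 CPM in wild-type and at 17.4 and 19.7 CPM in Smg6-deficient libraries (edgeR log2 fold change -0.70 ± 0.13 SE, adjusted p = 0.0058). X-linked genes were lower as a group in these libraries: of 1040 tested, 590 fell and 37 rose, with a median log2 fold change of -0.76, so that Fancb lay near the median of its chromosome. A difference in the X chromosome between the cells of the groups and an effect of Smg6 on Fancb cannot be told apart here. Fancl, the ubiquitin ligase of the same module, was at 29.0 and 23.7 CPM against 26.0 and 23.8 CPM, with overlapping groups and a log2 fold change of -0.08 (95% interval -0.37 to 0.21). Fancc, which pairs with FANCE, also overlapped, with a log2 fold change of -0.10 (95% interval -0.38 to 0.19).

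The FANCI-FANCD2 pair is the substrate of the core complex, clamped onto DNA once ubiquitin is attached. Fanci was at 88.8 and 81.6 CPM in wild-type and at 161.3 and 161.7 CPM in Smg6-deficient libraries (edgeR log2 fold change 0.92 ± 0.082 SE, adjusted p = 0.00051). This was the smallest adjusted p among the 39 genes. Fancd2 was at 93.3 and 103.2 CPM against 119.1 and 109.8 CPM, with a difference of 0.22 on the log2 scale (95% interval 0.0054 to 0.43) that missed the threshold (edgeR adjusted p = 0.095). Fancd2 passed without wild-type replicate 2 (edgeR log2 fold change 0.27, adjusted p = 0.022).

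Of 7 damage signalling genes 4 rose: the apical kinase genes Atr and Atm, the ATR partner gene Atrip, and Trp53bp1. Atr, the kinase recruited to single-stranded DNA, was at 102.2 and 109.3 CPM in wild-type and at 172.6 and 172.9 CPM in Smg6-deficient libraries (edgeR log2 fold change 0.71 ± 0.079 SE, adjusted p = 0.0011). Atrip, the partner that brings ATR to that DNA, was at 32.5 and 32.3 CPM against 47.6 and 46.5 CPM (edgeR log2 fold change 0.54 ± 0.080 SE, adjusted p = 0.0029). Atm, the kinase activated at double-strand breaks, was at 59.9 and 79.6 CPM against 112.3 and 114.0 CPM (edgeR log2 fold change 0.70 ± 0.13 SE, adjusted p = 0.0076). For Atr, Atrip and Atm the groups did not overlap, and Atm varied most between the wild-type libraries. Atr has 23629 nt of annotated exon sequence, the most of any member, and with a correction for gene length it still passed with a smaller log2 fold change of 0.36 (edgeR adjusted p = 0.013). The call of Atm was lost in the unfiltered test on log2(RPKM + 0.1) (limma-trend adjusted p = 0.070).

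Trp53bp1, a chromatin reader that limits resection, was at 101.3 and 111.9 CPM against 183 and 174.5 CPM (edgeR log2 fold change 0.75 ± 0.086 SE, adjusted p = 0.0012). Mdc1, the scaffold bound to phosphorylated histone H2AX and the most abundant member per length, was at 262.1 and 361.6 CPM against 425.1 and 395.7 CPM. Mdc1, at a log2 fold change of 0.40 (95% interval 0.036 to 0.76), missed the threshold (edgeR adjusted p = 0.078). That outcome turned on wild-type replicate 2: without it Mdc1 passed at 0.63 (edgeR adjusted p = 0.00044), and the DESeq2 Wald test also called Mdc1 (adjusted p = 0.037). The effector kinases Chek1 (log2 fold change -0.07, 95% interval -0.26 to 0.11) and Chek2 (0.13, 95% interval -0.088 to 0.34) did not pass, though Chek2 did without wild-type replicate 1 (0.22, edgeR adjusted p = 0.039). The difference between the upstream and the effector kinases was not tested.

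**Figure D2:**
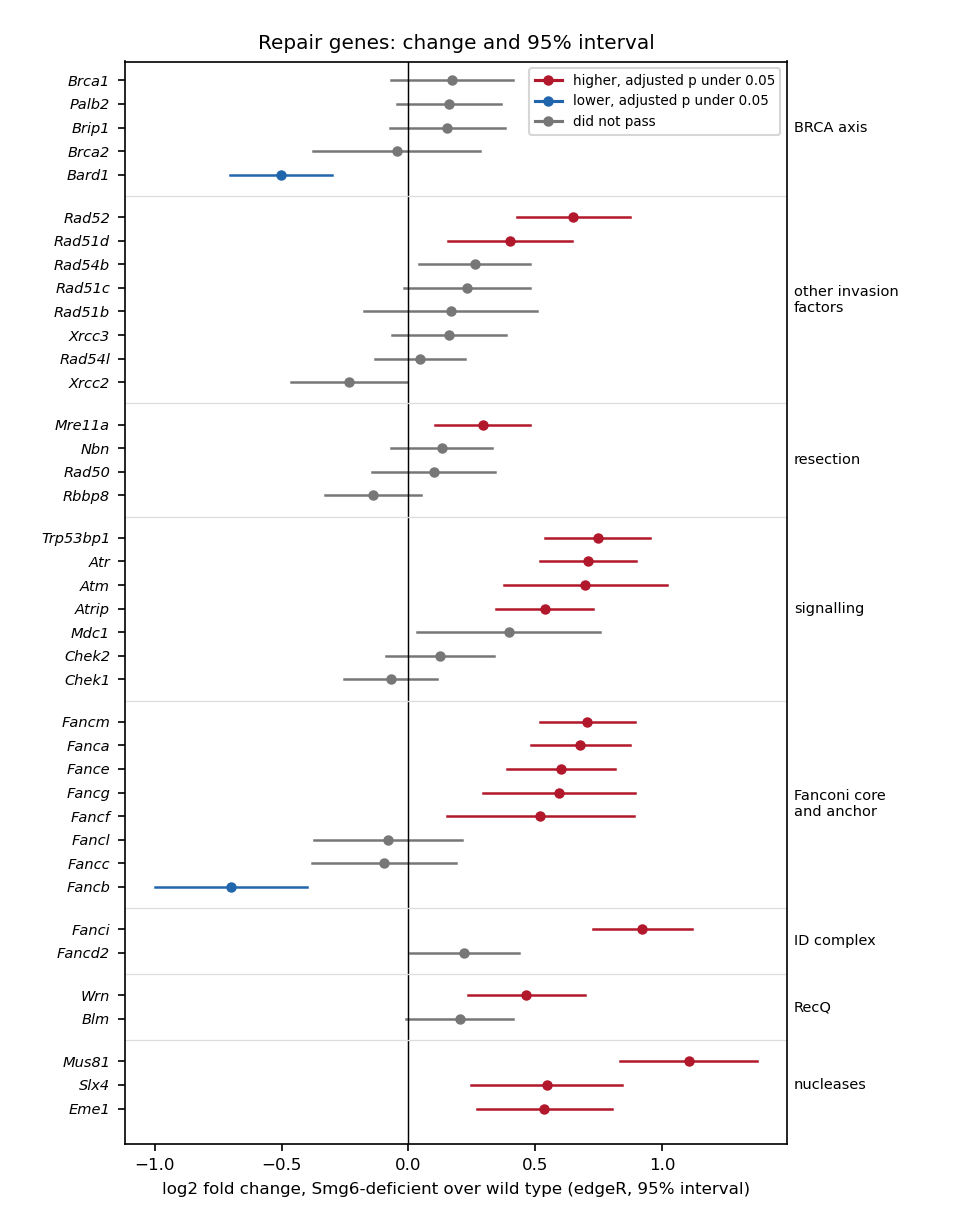
Log2 fold change (Smg6-deficient over wild type, edgeR) with its 95% interval for each of the 39 genes, grouped by role and sorted within each role; colours mark genes that rose (17), fell (2) or did not pass (20). The intervals of the 3 nuclease genes and of 5 of 8 Fanconi core genes lie right of zero, and those of Bard1, Fancb and Xrcc2 left of it. Xrcc2 did not pass, nor did Fancd2, Rad54b and Mdc1, whose intervals lie right of zero. Calls rest on the adjusted p, while the intervals are not adjusted.

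Of the 4 genes that sense and trim breaks, Mre11a was past the threshold. Mre11a, the nuclease of the MRE11-RAD50-NBN complex, was at 97.5 and 95.8 CPM in wild-type and at 122.1 and 114.7 CPM in Smg6-deficient libraries (edgeR log2 fold change 0.29 ± 0.078 SE, adjusted p = 0.025). This call was lost under 8 of 18 alternatives, among them leaving out Smg6-deficient replicate 1 or 2 (edgeR adjusted p = 0.26 and 0.12), scaling by library size alone (0.051) and correcting for gene length (0.20 on the log2 scale, edgeR adjusted p = 0.086). Rad50, its ATPase partner, had overlapping groups and a log2 fold change of 0.10 (95% interval -0.14 to 0.34), and Nbn, which recruits ATM, had 0.13 (95% interval -0.067 to 0.33). Rbbp8, the cofactor that starts resection, was at 40.1 and 40.8 CPM against 36.6 and 36.8 CPM. At -0.14 on the log2 scale (95% interval -0.33 to 0.051) it missed the threshold, and it passed with a correction for gene length (-0.36, edgeR adjusted p = 0.015).

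On the BRCA1-PALB2-BRCA2 axis, Bard1 was the sole gene of 5 past the threshold. Bard1 encodes the obligate partner of BRCA1 in a ubiquitin ligase, and stood at 96.5 and 104.3 CPM in wild-type and at 73.1 and 68.6 CPM in Smg6-deficient libraries (edgeR log2 fold change -0.50 ± 0.084 SE, adjusted p = 0.0045). Its groups did not overlap. Brca1 was at 158.2 and 187.9 CPM against 192.0 and 197.7 CPM, with 0.17 on the log2 scale (95% interval -0.070 to 0.41), and of the 18 alternatives it passed in 1, without wild-type replicate 2 (0.28, edgeR adjusted p = 0.012). Palb2, the bridge between BRCA1 and BRCA2, had a log2 fold change of 0.16 (95% interval -0.043 to 0.37), and the helicase gene Brip1 had 0.15 (95% interval -0.072 to 0.38).

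Brca2, the central mediator of strand invasion, was at 100.5 and 134.8 CPM in wild-type libraries and at 115.7 and 112.1 CPM in Smg6-deficient libraries. The Smg6-deficient values lay between the wild-type values, with a log2 fold change of -0.05 (95% interval -0.38 to 0.28). Its direction hung on the wild-type library used: the log2 fold change was -0.24 (edgeR adjusted p = 0.021) without replicate 1 and 0.16 (edgeR adjusted p = 0.10) without replicate 2.

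Of the other genes that help strand invasion (Rad51b, Rad51c, Rad51d, Xrcc2, Xrcc3, Rad52, Rad54l and Rad54b), 2 of 8 rose. Rad52, which anneals single strands, was at 14.8 and 15.1 CPM in wild-type and at 23.0 and 23.9 CPM in Smg6-deficient libraries (edgeR log2 fold change 0.65 ± 0.093 SE, adjusted p = 0.0025). Rad51d, a subunit of the BCDX2 complex, was at 16.5 and 17.0 CPM against 23.3 and 20.9 CPM (edgeR log2 fold change 0.40 ± 0.10 SE, adjusted p = 0.021), and leaving out Smg6-deficient replicate 1 or 2 ended its call (edgeR adjusted p = 0.21 and 0.059). Its call was also lost in the 3 tests on RPKM. The other members of that complex did not pass: Rad51b had a log2 fold change of 0.17, Rad51c 0.23 and Xrcc2 -0.24 (edgeR adjusted p = 0.39, 0.12 and 0.092). Xrcc2 was lower in both Smg6-deficient libraries, at 29.4 and 31.9 CPM against 37.8 and 34.3 CPM, and passed with scaling by library size alone (-0.29, edgeR adjusted p = 0.046), with a correction for gene length (-0.32, edgeR adjusted p = 0.039) and without wild-type replicate 2 (-0.32, edgeR adjusted p = 0.020).

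Xrcc3, which pairs with RAD51C, had a log2 fold change of 0.16 (95% interval -0.064 to 0.39). The RAD54 translocases remodel DNA during strand invasion. Rad54b was at 64.0 and 71.3 CPM against 84.4 and 77.9 CPM, and its log2 fold change of 0.26 just missed the threshold (edgeR adjusted p = 0.060), passing without wild-type replicate 2 (0.32, edgeR adjusted p = 0.013). Rad54l lay between 82.9 and 87.1 CPM in all 4 libraries (log2 fold change 0.05, 95% interval -0.13 to 0.22), and its small difference took the other sign with scaling by library size alone (-0.01). Of the RecQ helicases that unwind joined molecules, Wrn rose from 23.0 and 25.9 CPM to 33.6 and 33.9 CPM (edgeR log2 fold change 0.46 ± 0.097 SE, adjusted p = 0.010). Without Smg6-deficient replicate 1 or 2, Wrn missed the threshold (edgeR adjusted p = 0.055 and 0.061). Blm was at 148.2 and 167.1 CPM against 182.1 and 180.4 CPM, or 0.20 on the log2 scale (edgeR adjusted p = 0.11), and passed without wild-type replicate 2 (0.27, edgeR adjusted p = 0.013).

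The proportion between partners of a complex differed between groups for some pairs. These pairs were chosen after their values were seen, and the ratios, per gene length, were not tested. Fanci over Fancd2 was 1.31 and 1.09 in wild-type and 1.86 and 2.03 in Smg6-deficient libraries. Bard1 over Brca1 was 0.914 and 0.831 in wild-type against 0.570 and 0.520 in Smg6-deficient libraries. Mus81 over Eme1 was 0.141 and 0.150 against 0.230 and 0.202. The ratios did not overlap between groups in these pairs. Atrip over Atr moved less, from 0.504 and 0.469 to 0.437 and 0.427.

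The 19 genes with an annotated NMD transcript had a median log2 fold change of 0.26, and 18 of 19 values were positive, the exception being Rbbp8. Of the 20 genes without one, 8 rose and 2 fell, with a median of 0.16 and 13 positive values. Over tested coding genes the corresponding medians were 0.15 for 4152 genes with such a transcript and 0.0037 for 12303 without, and 33.3% and 20.7% rose. Among the members, 47.4% with and 40% without such a transcript rose. Atr, Atm, Fanca, Fancg, Fancf, Wrn, Eme1 and Mre11a rose with no annotated NMD transcript. Of 24 members with an annotated retained-intron transcript 12 rose, and of 15 without one 5 rose (33.3%) and 2 fell. Over tested coding genes, 29% with such a transcript and 18.2% without one rose.

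**Figure D3:**
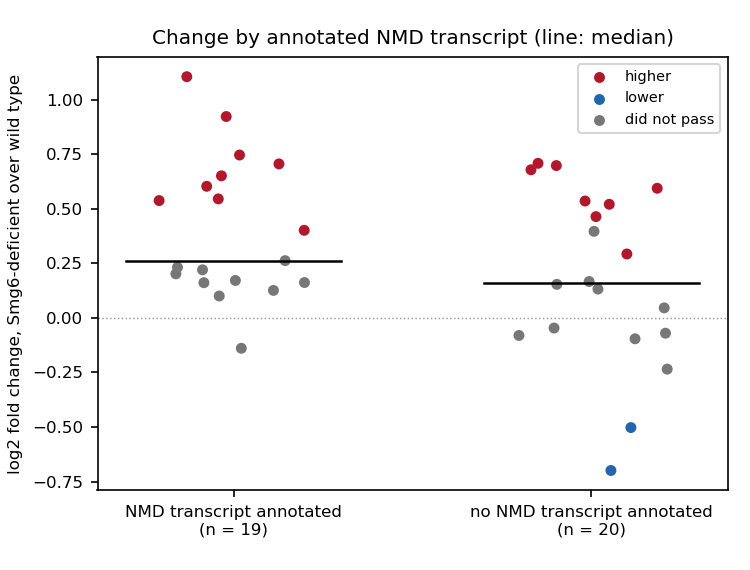
Log2 fold change of each member, split by whether GENCODE annotates an NMD transcript for the gene (19 genes) or not (20 genes); points are genes, coloured by call and spread sideways for visibility, and lines are medians (0.26 and 0.16). Genes that rose appear on both sides, and both genes that fell, Bard1 and Fancb, have no annotated NMD transcript.

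Gene length and level gave weak relations across the members. Pearson's r of the log2 fold change was 0.13 with log2 exon length and -0.07 with log2 mean RPKM over the 39 genes, which come from the same 4 libraries; over all tested genes r with log2 exon length was 0.16. Of the 20 members at or below the members' median level 11 rose (55%), and of the 19 above it 6 rose (31.6%). Over all tested coding genes 23.9% rose, and these were not split by level. The difference between the 2 sets of members was not tested.

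The TruSeq v2 kit keeps no strand information, so a read from an exon shared by overlapping genes cannot be assigned to its strand. Of the 39 genes, 23 share no annotated exon sequence with another gene in the files, and of these 8 rose (34.8%) and 2 fell. Of the 16 that do share some, 9 rose (56.2%). Over all tested coding genes 23.9% rose, and these were not split by shared exons. The difference between the 2 sets of members was not tested. Fanci shares 921 nt, 16.0% of its exon length, with Polg on the opposite strand, which also rose (log2 fold change 0.57). Fanca shares 10.5% with Zfp276 (0.66), Trp53bp1 2130 nt with Tubgcp4 (0.33), Fancf 253 nt with Gas2 (0.52) and Eme1 221 nt with Lrrc59 (0.35), and each of these neighbours rose. Gas2 stood at 9.59 CPM and Lrrc59 at 339.2 CPM in wild type, above Fancf (2.31 CPM) and Eme1 (38.1 CPM). Mus81 shares 4.85% with Efemp2, which was at 0.41 (edgeR adjusted p = 0.096). Rad54b shares 35.8% with Fsbp on the same strand, which fell (-0.33). The part that shared reads play in these values was not tested.

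Promoter sequence is shown for the members that hold an E2F-like motif, since Fancg and Bard1 hold the same motif and moved in opposite directions, a pair seen only after the values were known. E2F factors drive many S-phase genes. The RefSeq table for GRCm38.p6 matched 31 of the 39 genes, and the 250 bases before the RefSeq start were searched on both strands for TTTGGCGC, TTTCCCGC, TTTGGCGG and TTTCCCGG (E2F-like), TTTGAA (CHR-like) and CCAAT. The 30 bases around each TTTCCCGC, or its reverse complement GCGGGAAA, are printed 5′ to 3′ in the sense of the gene with the motif in capitals.
Bard1 (chr1:71103163-71103192, minus strand): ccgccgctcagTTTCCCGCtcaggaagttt
Fancg (chr4:43010335-43010364, minus strand): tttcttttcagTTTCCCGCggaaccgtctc
Mdc1 (chr17:35841468-35841497, plus strand): ttttcttcagcctgTTTCCCGCcggtagcc
Brca2 (chr5:150522442-150522471, plus strand): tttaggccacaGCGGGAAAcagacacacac
Chek2 (chr5:110839820-110839849, plus strand): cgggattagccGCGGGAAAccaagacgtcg

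TTTCCCGC was found for these 5 of 31 genes, in 14.7% of 34 member promoters against 0.895% of all 32851 promoters of the same length. For the E2F-like motifs searched together, the shares were 14.7% and 2.68%. All promoters here are those of 27025 genes, not limited to tested coding genes as the members are, and not matched in content of G and C. The differences in share were not tested, and they do not show a trait of repair genes. TTTCCCGC was singled out after the search. Fancg rose, Bard1 fell and the other 3 did not pass. The motif ends 8 nt before the RefSeq start in Mdc1, 44 nt before it in Fancg and 201 nt before it in Bard1. In Fancg it lies inside the gene as GENCODE annotates it, which starts further upstream, and in the other 4 it lies before the GENCODE gene. The other E2F-like motifs were not seen in member promoters. CCAAT was in 58.8% of member promoters against 33.8% of all, and TTTGAA in 2.94% (Bard1) against 16.0%. For some members the 250 bases searched lie inside the gene as GENCODE annotates it. Among these are Slx4, whose bases hold a CCAAT, and Chek1, Fanci and Fancl. CCAAT was in 53.3% of the promoters of members that rose and in 64.7% of those of members that did not pass. A match is a description of letters, not of a bound factor.

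In a wider list of 70 other genes of these pathways, 30 rose (42.9%) and 8 fell (11.4%), with a median log2 fold change of 0.18. Over all tested genes 20.5% rose and 19.2% fell, with a median of 0.0080. Slx1b, the nuclease that works on the Slx4 scaffold, had the smallest adjusted p among those that rose, from 13.7 and 14.3 CPM to 40.9 and 37.6 CPM (edgeR log2 fold change 1.49 ± 0.096 SE, adjusted p = 0.00023), though its annotated locus overlaps that of Bola2. Per gene length, Slx1b over Slx4 was 0.655 and 0.535 in wild-type and 1.19 and 1.07 in Smg6-deficient libraries. Rtel1, a helicase gene, also rose (1.15 on the log2 scale), as did the resection nuclease gene Dna2 (0.71). Those that fell included the X-linked deubiquitinase gene Brcc3 (-1.35), Ube2t (-0.82), the enzyme that delivers ubiquitin to FANCI-FANCD2, Rpa3 (-0.69), a subunit of the single-strand binding protein RPA, and Sem1 (-0.59), a small partner of BRCA2. Of 10 genes of end joining, the competing repair route, 4 rose, among them Prkdc (1.52) and Polm (1.27).

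Many repair genes are regulated with the cell cycle, so cell-cycle genes are given beside them. The share over all tested genes was 20.5% rising and 19.2% falling. Of 24 genes of S phase 3 rose and 6 fell, with a median log2 fold change of -0.04, Tyms at 0.59 and Mcm6 at -0.46, the latter not past the threshold without Smg6-deficient replicate 2 (edgeR adjusted p = 0.081). Of 20 genes of G2 and mitosis 9 fell and 11 did not pass, with a median of -0.25, Nusap1 at -0.80 and Cdk1 at -0.49. Of 12 targets of p53, 2 rose and 2 fell, with Pmaip1 at 0.47 (edgeR adjusted p = 0.059 without Smg6-deficient replicate 2) and Sesn1 at -0.70. The difference between these lists and the repair genes was not tested.

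**Figure D4:**
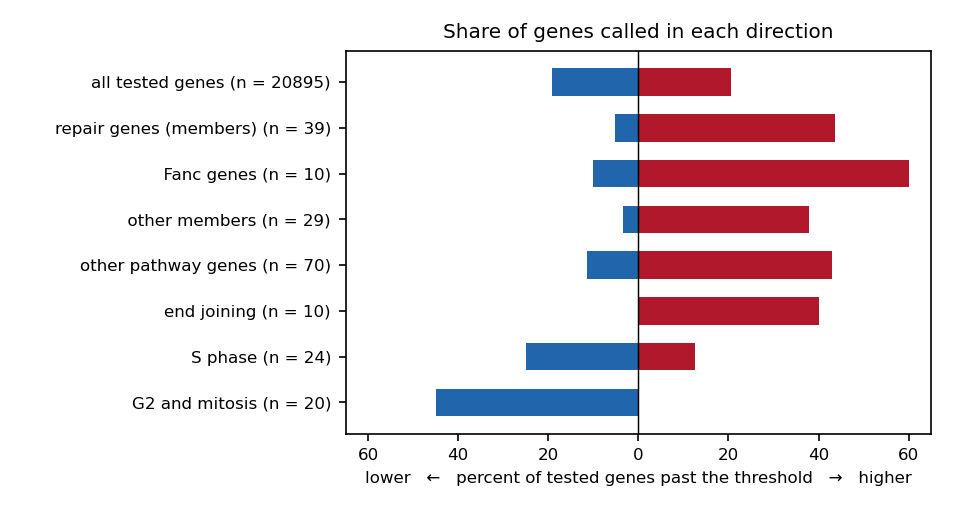
Percent of tested genes that rose (right, red) or fell (left, blue) in Smg6-deficient cells, for all tested genes, the 39 repair genes, the 10 Fanc genes and the other 29 among them, and 4 other lists; n is the number of genes. The repair genes reach 43.6% right and 5.13% left, all tested genes 20.5% and 19.2%, and genes of G2 and mitosis 45.0% left.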

How the data were processed

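RNA was extracted with TRIzol and single reads were sequenced on a HiSeq2000 from TruSeq v2 libraries, per the labels' protocols. The submitters' processing notes name TopHat2 2.0.9 and mm10. The sources used here do not name the counting tool or say how multiply aligned reads were counted. The authors deposited whole-number read counts and RPKM values per Ensembl gene for each library. The deposited RPKM values imply read totals above the summed gene counts in all 4 libraries.

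Symbols, positions and transcript types came from GENCODE M21, which held 35449 of 37224 identifiers. The members, lists and tests were chosen with earlier results of these data known. Counts passing filterByExpr (minimum count 10) were normalised by TMM. The main test was the quasi-likelihood F test of edgeR 4.0.16 under R 4.3.3, with genotype as the only term and Benjamini-Hochberg adjustment over 20895 genes. SE is the absolute log2 fold change over the square root of F. The test was tried first on simulated data for 20895 genes. It recovered 28 of 100 genes changed by 0.5 on the log2 scale and 74 of 100 changed by 1. It also called 21 unchanged genes. Far fewer genes were changed in the simulation than passed in the real data (39.7%), and the adjustment of p depends on that share. The numbers recovered and falsely called therefore do not carry over to these data. A gene that did not pass may still differ, and some calls may be false. Alternatives, 18 in all, changed the scaling, filter, tool (limma 3.58.1, DESeq2 1.42.0), unit, gene length correction, replicate block or genes tested, or left out 1 library. Named genes were Smg6, all members, up to 4 other pathway genes in each direction and up to 2 per further list, by smallest adjusted p; 1 gene that the rule names is not reported here. Replicates of a group were not identical, with a chi-square per degree of freedom of 56.7 and 32.1.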

Additional observations from a re-analysis of the deposited data

How the results depend on the processing

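Under 18 alternatives, 11 of the 19 called members kept their call in each one that tested them: Bard1, Rad52, Atr, Atrip, Trp53bp1, Fanca, Fancb, Fance, Fancm, Fanci and Mus81 (Fancb was left out of the test on autosomal genes). The other 8 lost it under at least 1. Members that rose numbered 11 with log2(RPKM + 1), 12 with log2(RPKM + 0.1) and 9 with the latter unfiltered (limma-trend). In these 3 tests 2700, 2643 and 1439 of all genes rose, and 1836 fell in the unfiltered one; the cause was not tested. Members that fell numbered 4 with the gene length correction, 5 with that correction and the replicate block, and 1 on autosomal genes, where Fancb was not tested. In these 3 tests 4362 and 5034 of 20499 genes and 3555 of 19430 genes fell. Leaving out each library in turn gave 11 to 22 members higher, 2 to 3 lower, 2540 to 5435 genes higher and 2206 to 4883 lower, with a median of the members from 0.19 to 0.29; the lone library of a group was then assumed to vary like the other group. Values that took the other sign, in genes that had not passed, were those of Rad54l with library size alone (-0.012), with the gene length correction (-0.078) and with that correction and the block (-0.078). Without 1 wild-type library, Brca2 ranged from -0.24 to 0.16, Fancc from -0.23 to 0.030 and Fancl from -0.24 to 0.077. With the replicate number as a block, 19 members rose and 2 fell, Rad54b and Mdc1 being added (edgeR adjusted p = 0.039 and 0.015). Over all 20895 tested genes, 5074 rose and 4613 fell under that setting, beside 4285 and 4004 in the main test. Deviations of same-numbered libraries correlated at 0.15 across genes, and nothing in the labels pairs them. Over all tested genes the median log2 fold change lay between -0.049 and 0.015 under the alternatives.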
